A study of Homo sapiens with 4 samples.

Results

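The CDK8 peaks at 6 immediate early genes, *EGR1*, *IER2*, *IER3*, *IER5*, *ZFP36* and *DUSP1*, were described in HCT116, an established cell line from a human colorectal cancer. Members were the peaks that overlapped, by at least 1 bp, a window made of the gene and about 20 kb on each side, in coordinates of GRCh37/hg19. The members were selected on the CDK8 peak calls of these same lists, so their presence, width and rank are given as a description and without tests. The windows, 264 kb in all, held 39 of the 19862 peaks of normoxia, 41 of the 21993 peaks of hypoxia-1 and 35 of the 14256 peaks of hypoxia-2. Joining touching or overlapping peaks of the 3 lists gave 41 regions in the windows, of 28150 in the whole genome. The genome-wide lists come from chromatin immunoprecipitation with an antibody against CDK8 and sequencing (ChIP-seq). They cover 1 library from cells in normoxia and 2 libraries from cells kept for 24 h in 1% oxygen, labelled replicates 1 and 2 and called hypoxia-1 and hypoxia-2 here. All libraries came from the same line, with no genetic change named in the labels, and whether the hypoxia replicates were separate cultures is not stated, so their spread may be technical. An input library is also labelled and was not analysed here.

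Immediate early genes are transcribed within minutes of a growth factor, stress or cytokine signal, without new protein synthesis. Many are controlled by serum response factor, which binds the CArG box of the serum response element together with ETS-domain partners, and by CREB at the cyclic AMP response element. CDK8 is the kinase of a module that docks on Mediator, the complex that carries signals from such factors to RNA polymerase II. EGR1 is a zinc-finger transcription factor. IER2, IER3 and IER5 are small proteins of the early response, IER3 being known for its part in cell survival. ZFP36 (tristetraprolin) binds AU-rich elements and speeds the decay of cytokine and early-response mRNAs, and DUSP1 is a phosphatase that switches off MAP kinases, so these genes limit the response that induces them.

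The score in the lists is the authors' own value per peak and its scale is not stated. It is used here only as a percentile within a list, in which 100 is the best peak, and a region takes its best peak in each library. Percentiles from lists of different length do not measure a change in binding. Read depth is unknown because the lists hold no counts, and hypoxia-2 has the shortest list. The lists covered 9.20 Mb in normoxia, 8.12 Mb in hypoxia-1 and 5.97 Mb in hypoxia-2. No test between conditions was run, since the smallest exact p that 1 library against 2 allows is 0.333. The difference between the hypoxia libraries is the only error available.

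The genes themselves are marked here by the gene interval, the window less 20 kb on each side, which is exact to about 1 kb. RefSeq promoters (GRCh38.p14) matched 5 of the 6 genes, and gave the strand of those 5. The 250 bases before the start are shown for 3 of the genes. CDK8 lay at their start side in all 3 lists, and each stretch holds a CArG box or TGACG, at *IER2* a single TGACG only. Capitals mark CArG boxes and the core TGACG of the cyclic AMP response element, on either strand.
EGR1: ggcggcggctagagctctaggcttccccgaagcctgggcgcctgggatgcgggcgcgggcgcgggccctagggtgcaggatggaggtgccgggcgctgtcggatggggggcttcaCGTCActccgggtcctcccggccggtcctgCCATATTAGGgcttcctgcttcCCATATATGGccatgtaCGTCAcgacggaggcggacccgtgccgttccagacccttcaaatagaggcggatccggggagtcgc
DUSP1: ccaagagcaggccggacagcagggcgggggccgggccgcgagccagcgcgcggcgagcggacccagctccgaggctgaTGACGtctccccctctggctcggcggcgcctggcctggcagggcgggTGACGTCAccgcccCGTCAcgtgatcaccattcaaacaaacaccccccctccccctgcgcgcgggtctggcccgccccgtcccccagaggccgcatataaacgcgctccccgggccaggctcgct
IER2: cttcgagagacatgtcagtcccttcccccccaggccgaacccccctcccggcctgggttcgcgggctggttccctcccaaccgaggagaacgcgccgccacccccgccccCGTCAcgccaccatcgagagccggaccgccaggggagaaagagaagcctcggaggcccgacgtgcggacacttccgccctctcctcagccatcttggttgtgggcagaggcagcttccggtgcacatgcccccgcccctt

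These stretches are chr5:138465229-138465478 on the plus strand for *EGR1*, chr5:172771196-172771445 on the minus strand for *DUSP1* and chr19:13150161-13150410 on the plus strand for *IER2*, all in GRCh38.p14. The start sites of that build cannot be placed to the base within the hg19 peaks. The *EGR1* stretch held 2 CArG boxes, CCATATTAGG and CCATATATGG, the first lying 105 to 96 bases and the second 83 to 74 bases before the start. A CArG box was found in 1.14% of 27305 promoter stretches of the same length, and 2 or more in 0.033%. The *DUSP1* stretch had no CArG box but a full TGACGTCA, a motif found in 1.77% of the stretches, and 4 matches to TGACG, of which 2 lie within that full site; 3 or more matches to TGACG were found in 1.04% of the stretches. *EGR1* had 2 matches to TGACG and *IER2* had 1, and 21.7% of the stretches had at least 1. TGACG was not found in the *IER5* and *ZFP36* stretches, and the CArG box was found only in *EGR1* among the 5. The hypoxia-response core ACGTG, searched on both strands, matched at 1 place in *EGR1*, 1 in *IER2* and 2 in *DUSP1*; 18.7% of the stretches had at least 1. In *EGR1*, and at both places in *DUSP1*, that match overlapped a TGACG match, and the *DUSP1* pair overlapped each other. The ETS core GGAA, present in 92.8% of the stretches, was found 4 times in *EGR1*, 4 in *IER2*, 1 in *IER5* and 6 in *ZFP36*, and not in *DUSP1*; 1 of the *EGR1* matches shared a base with a CArG box. GGGCGG, the GC box, was found 3 times in *IER2*, 3 in *ZFP36* and 4 in *DUSP1*, and in 42.3% of all stretches. TATAAA was found in *DUSP1* alone, 30 to 25 bases before the start, and in 11.1% of all stretches. TGANTCA, the AP-1 motif, was in none of the 5 and in 6.60% of all stretches. A match is a description of the letters and shows no bound factor.

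At each of the 6 genes, the lead region of the window, the one in most lists whose lowest percentile was highest, touched the gene interval. Each window held between 1 and 7 regions listed in all 3 libraries. By the rule for the lead, each lead region was therefore one of these. The genes fell into a group with most of the gene interval under CDK8 peaks (*IER2*, *IER3*, *ZFP36*) and a group in which the lead region lay at the start side of the gene and much of the interval had no peak (*EGR1*, *IER5*, *DUSP1*). This grouping was made after the values were seen.

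**Figure D1:**
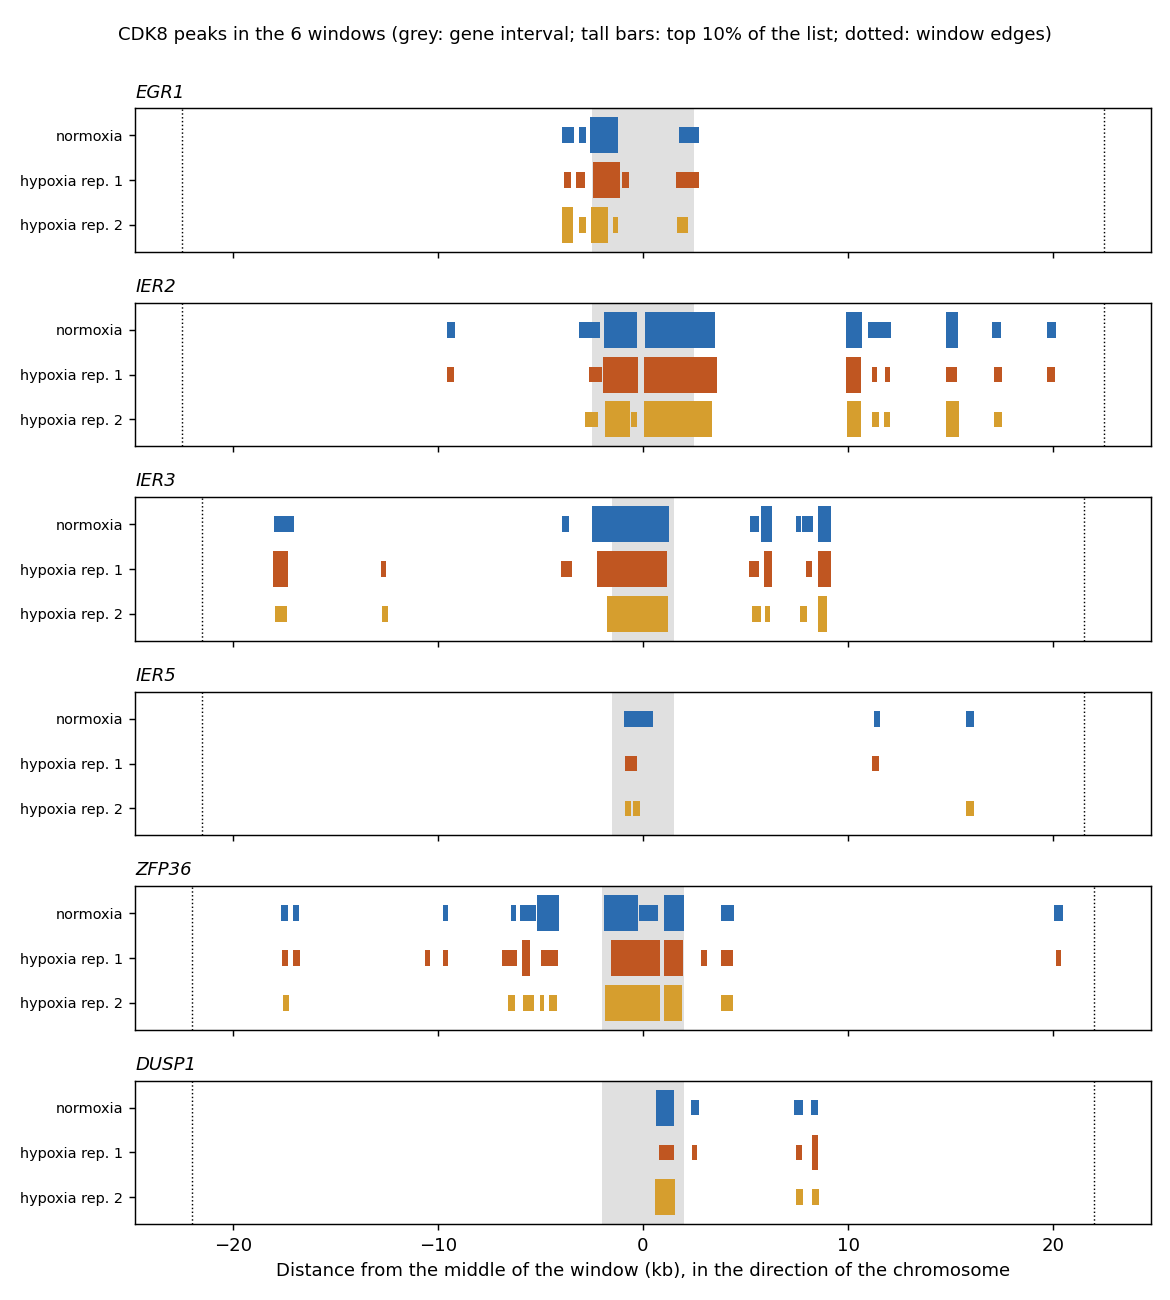
CDK8 peaks in the 6 windows, by library; the x axis is the distance in kb from the middle of the window, grey marks the gene interval, dotted lines mark the window edges and tall bars are peaks in the top 10% of their list. Bars cover most of the gene interval of *IER2*, *IER3* and *ZFP36* in all 3 libraries, while *EGR1*, *IER5* and *DUSP1* have peaks on part of it.

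*EGR1* (chr5:137781001-137826000) had 5 regions, which followed each other from chr5:137799550 to chr5:137806249. The lead region, chr5:137800908-137802357 (1450 bp), spans the start side of this plus-strand gene and reached percentile 96.2 in normoxia, 96.6 in hypoxia-1 and 98.0 in hypoxia-2. The 3 values lay within 1.75 points of each other. It was a single peak of 1396 bp in normoxia and 1319 bp in hypoxia-1, and was split in hypoxia-2 into an 841 bp peak and a 268 bp peak. Next to it, chr5:137802479-137802837 was listed in hypoxia-1 alone, at percentile 42.7. After 2276 bp with no peak in any library, a region lay at the end side of the gene interval, chr5:137805114-137806249 (1136 bp). As the interval is exact to about 1 kb, this region may lie past the end of the gene. That end region stood at percentile 67.4 in normoxia, 77.2 in hypoxia-1 and 26.2 in hypoxia-2, so the hypoxia libraries differed by 51.0 points with normoxia between them. Just upstream of the gene, a pair of narrower regions followed each other with a gap of 95 bp. The farther, chr5:137799550-137800146, had percentiles of 67.2, 44.5 and 90.5 in normoxia, hypoxia-1 and hypoxia-2, and the nearer, chr5:137800242-137800717, had 88.4, 56.0 and 72.6. The start of *EGR1* was thus high in every list, and the regions around it varied more between the hypoxia libraries.

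*IER2* (chr19:13241001-13286000) had 9 regions, and its window was the most covered of the 6. Peaks covered 21.7% of the window in normoxia, 19.6% in hypoxia-1 and 17.1% in hypoxia-2. Over the gene interval the shares were 88.0%, 92.5% and 84.4%. The lead region, chr19:13263544-13267097 (3554 bp), was 1 peak in each library, 3402, 3554 and 3310 bp wide, at percentiles 98.7, 98.6 and 98.5. That region covers the end side of this plus-strand gene and runs past the gene interval. The start side held chr19:13261570-13263248 (1679 bp), which begins inside the gene interval. It stood at percentiles 97.2, 95.8 and 98.6, and the gap between it and the lead region was 295 bp. A weaker region, chr19:13260392-13261491, spans the start edge of the interval and had percentiles of 53.5, 32.7 and 24.9. The interval is exact to about 1 kb, so which of these regions covers the start site is not known. *STX10* is the neighbouring protein-coding gene on the start side in RefSeq (GRCh38.p14), and which of the genes the weaker region belongs to was not tested.

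Downstream of *IER2* a row of 5 regions lay 7.38 to 17.2 kb beyond the gene interval. The nearest, chr19:13273382-13274176, was at percentile 92.4 in normoxia, 93.3 in hypoxia-1 and 92.8 in hypoxia-2, a range of 0.810 points. The region chr19:13278258-13278922 had 96.2, 80.9 and 97.5. The others in all 3 lists had percentiles between 66.6 and 89.7. The farthest, chr19:13283203-13283639, and the only upstream region, chr19:13253920-13254310, were missing from hypoxia-2 and stood between percentiles 52.0 and 75.9 where listed.

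The *IER3* window (chr6:30690001-30733000) carried the best-ranked region of the 41. It was chr6:30709024-30712769 (3746 bp), listed as 1 peak of 3746 bp in normoxia, 3402 bp in hypoxia-1 and 2983 bp in hypoxia-2. By score that peak ranked 3 of 19862 in normoxia, 3 of 21993 in hypoxia-1 and 6 of 14256 in hypoxia-2. It covered 92.3%, 89.0% and 91.1% of the gene interval. The ends of the 3 peaks lay close together, and the width differed mostly at the low-coordinate edge, where the peak began at 30709024, 30709270 and 30709750. On that side the region runs past the gene interval. The neighbouring protein-coding genes in RefSeq (GRCh38.p14) are *FLOT1* on the low-coordinate side and *DDR1* on the high-coordinate side. Which of the genes the regions of this window belong to was not tested.

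A cluster of 4 regions lay 3.68 to 7.03 kb beyond the high-coordinate end of the *IER3* interval, all listed in all 3 libraries. Of these, chr6:30720033-30720674 was high in each list, at percentiles 96.7, 93.5 and 98.8. Its neighbour chr6:30717266-30717782 had 94.8 in normoxia, 97.4 in hypoxia-1 and 70.3 in hypoxia-2. The region 8 bp before that one, chr6:30716681-30717257, had 61.0, 74.8 and 14.4, and chr6:30718958-30719814 had 21.2, 8.28 and 28.4. In all 6 regions of this window that were in all 3 lists, the normoxia percentile lay between those of the hypoxia libraries, as it did in 41.7% of all such regions. On the low-coordinate side, chr6:30693469-30694494 had 76.7, 90.7 and 34.8, and chr6:30707515-30708056 was listed in normoxia and hypoxia-1 only, at 36.0 and 76.6. The region chr6:30698712-30699043 was the only one of the 41 that both hypoxia lists held and normoxia lacked, a pattern of 3.18% of all regions. It stood at percentile 35.5 in hypoxia-1 and 69.2 in hypoxia-2, 11.0 kb from the gene interval.

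*IER5* (chr1:181037001-181080000) had the fewest regions, 3. The lead region, chr1:181057597-181059011 (1415 bp), lay at the start side of this plus-strand gene and had percentiles of 88.4 in normoxia, 85.6 in hypoxia-1 and 83.0 in hypoxia-2, the lowest of the 6 lead regions in normoxia and in both hypoxia libraries. Peaks covered 1415 bp of the gene interval in normoxia, 586 bp in hypoxia-1 and 609 bp, in 2 peaks, in hypoxia-2. The hypoxia libraries differed little here and normoxia stood apart from both, a difference for which there is no second normoxia library. The other regions were each missing from 1 hypoxia list. The region chr1:181069681-181070051 was near the bottom of both lists that held it, at percentile 4.09 in normoxia and 1.84 in hypoxia-1. In contrast, chr1:181074265-181074632 was at 86.7 in normoxia and 82.1 in hypoxia-2, and was not listed in hypoxia-1.

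*ZFP36* (chr19:39877001-39921000) had the most regions, 12, of which 7 were in all 3 lists. The lead region, chr19:39900017-39900993 (977 bp), lay at the end side of the gene interval of this plus-strand gene. Its percentiles were 99.0, 98.9 and 99.6 in normoxia, hypoxia-1 and hypoxia-2. As the interval is exact to about 1 kb, this lead region may lie past the end of the gene. It was followed in rank by the widest region of the window, chr19:39897117-39899844 (2728 bp), which covers the start side and the body, at 98.7, 97.4 and 98.7. That region was 2 peaks in normoxia (1623 and 912 bp) and 1 peak in hypoxia-1 (2414 bp) and hypoxia-2 (2676 bp). Together they left 172 bp of the interval between them without a peak in any library, and covered 87.3%, 84.0% and 89.1% of it.

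Upstream of *ZFP36*, 3 regions in all 3 lists lay between 2.09 and 4.14 kb before the gene interval. The closest, chr19:39893836-39894911, had percentiles of 92.0, 86.9 and 89.5 and the next, chr19:39893001-39893775, had 86.3, 92.5 and 82.6. The third, chr19:39892123-39892862, was among the least steady of all 41, with 6.41 in normoxia, 66.4 in hypoxia-1 and 16.5 in hypoxia-2. Farther upstream lay chr19:39881347-39881755, at 50.6, 23.5 and 16.3, and chr19:39881912-39882251, listed in normoxia (80.1) and hypoxia-1 (74.9) only. *MED29*, which encodes a subunit of Mediator itself, is the neighbouring protein-coding gene on that side in RefSeq (GRCh38.p14). The regions chr19:39888353-39888620 and chr19:39901815-39902125 were listed in hypoxia-1 alone, at percentiles 30.1 and 49.2. The regions chr19:39889230-39889500 and chr19:39919025-39919484 were in normoxia (9.55 and 38.7) and hypoxia-1 (1.47 and 29.1). Downstream, chr19:39902786-39903428 had 82.8, 62.3 and 44.5. *PLEKHG2* is the neighbouring protein-coding gene on the downstream side. Which of the genes the flank regions belong to was not tested.

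*DUSP1* (chr5:172175001-172219000) had 4 regions. The lead region, chr5:172197566-172198552 (987 bp), lay at the high-coordinate side, where this minus-strand gene starts, at percentiles 91.4 in normoxia, 89.5 in hypoxia-1 and 98.3 in hypoxia-2. The peak was 886, 718 and 987 bp wide, and the 2565 bp on the end side of the gene interval had no peak in any library. All other regions lay upstream. A pair separated by 401 bp, 5.37 and 6.20 kb before the gene interval, was in all 3 lists. The nearer of the pair, chr5:172204368-172204797, had percentiles of 79.9, 85.8 and 80.2, and the farther, chr5:172205199-172205589, had 80.3, 91.7 and 76.4. In hypoxia-1 the farther one outranked the gene's start. The region chr5:172199329-172199723 was near the bottom of the lists, at 10.9 in normoxia and 4.06 in hypoxia-1, and was not listed in hypoxia-2.

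Across the 6 genes, coverage of the gene interval split the members in the same way in each library. *IER2*, *IER3* and *ZFP36* lay between 84.0% and 92.5% in every library. *EGR1* had 41.0% in normoxia, 51.3% in hypoxia-1 and 31.7% in hypoxia-2. *DUSP1* had 22.2%, 18.0% and 24.7%, and *IER5* had 47.2%, 19.5% and 20.3%. All gene intervals together were covered to 62.5%, 60.5% and 57.1%, and the flanks to 7.20%, 6.06% and 4.33%. Genome-wide, peaks covered 0.313%, 0.274% and 0.203% of chromosomes 1 to 22 and X, each measured from its first to its last peak. The flanks of these genes were thus covered to a higher share than the genome, in windows chosen with the peaks known.

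**Figure D2:**
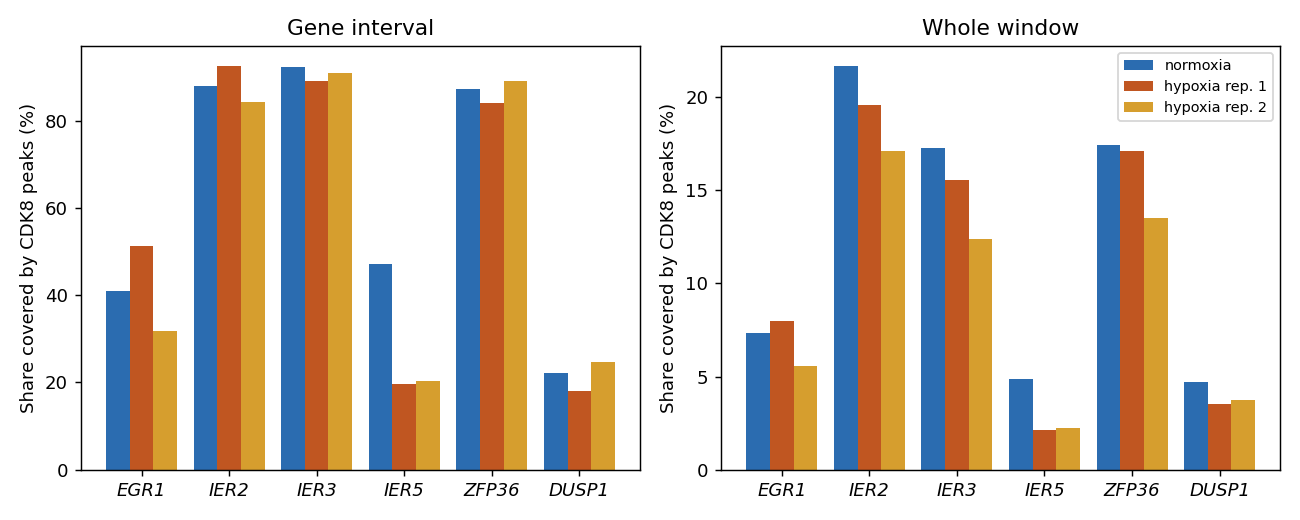
Share of the gene interval (left) and of the whole window (right) covered by CDK8 peaks, in percent, for each gene and library; each bar is 1 library, so there is no error bar. *IER2*, *IER3* and *ZFP36* stand above 80% of the gene interval in all libraries, and *IER5* is the gene where normoxia (47.2%) is farthest from both hypoxia libraries.

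Of the 41 regions, 28 (68.3%) were in all 3 lists, against 33.0% of all 28150 regions. A further 8 were in normoxia and hypoxia-1 only (15.9% of all regions) and 1 in normoxia and hypoxia-2 only (6.65%). There were 3 in hypoxia-1 alone (22.6%), 0 in normoxia alone (13.2%) and 0 in hypoxia-2 alone (5.46%). Leaving out a hypoxia library moves these counts. Without hypoxia-1, 8 regions were in normoxia alone, and 1 was in hypoxia-2 and absent from normoxia. Without hypoxia-2, 2 were in normoxia alone, and 4 were in hypoxia-1 and absent from normoxia. The shares over all regions were not computed with a library left out, so these counts are not read as gain or loss. Of the 11 regions that touched a gene interval, 10 were in all 3 lists, the exception being the small *EGR1* region of hypoxia-1. Of the 30 flank regions, 18 were. Of the 13 regions missing somewhere, 11 (84.6%) were missing from hypoxia-2, the shortest list, close to the 77.2% of all 18855 such regions. For the 5 genes with a known strand, 13 flank regions lay upstream and 10 downstream, with *EGR1* and *DUSP1* having upstream ones only and *IER5* downstream ones only.

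**Figure D3:**
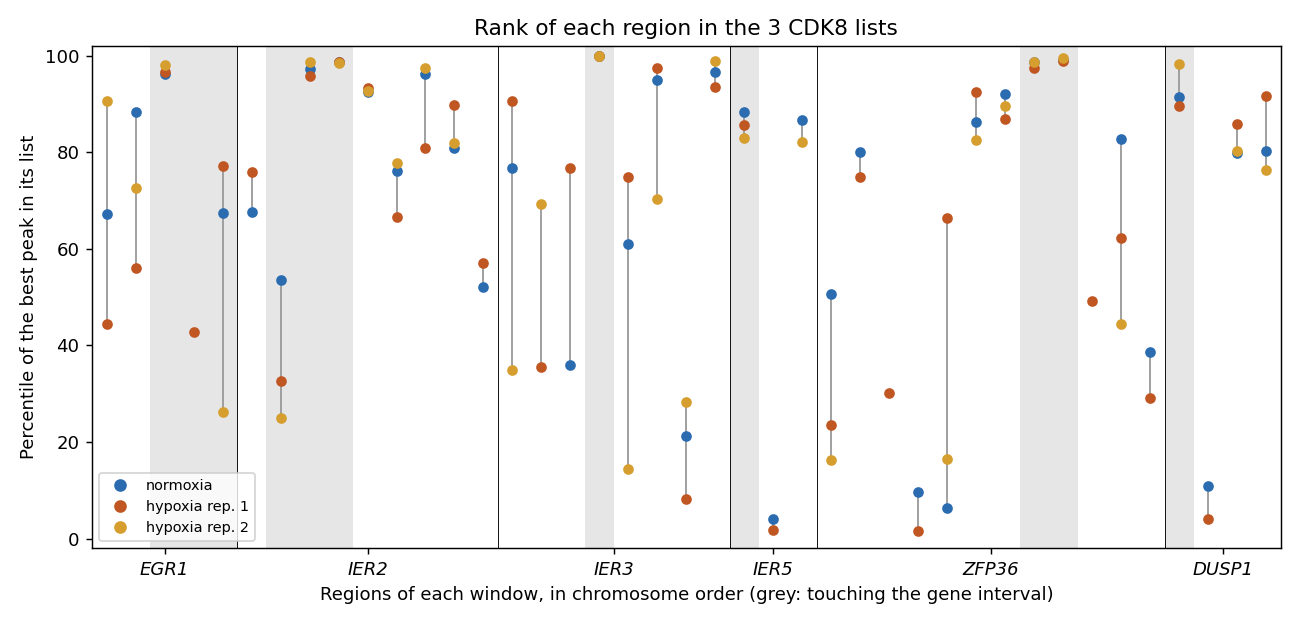
Percentile of the best peak of each region in its list (y axis) for the 41 regions in chromosome order by gene (x axis); colours are libraries, grey bands mark regions touching the gene interval, and a missing point means that the library does not list the region. The points of the lead regions nearly coincide at *IER3* and *IER2*, while several flank regions of *IER3*, *EGR1* and *ZFP36* spread over more than 30 points.

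Regions at the genes were both high and steady in rank. Over the 10 in all 3 lists, the median percentile was 96.7 in normoxia, 96.2 in hypoxia-1 and 98.4 in hypoxia-2, against 80.6, 83.3 and 77.1 over the 18 in the flanks. Over all 9295 regions in all 3 lists it was 71.5, 71.1 and 61.5. The median difference between the hypoxia libraries was 2.01 points at the genes, 16.0 points in the flanks and 17.6 points over all regions. Ranks near the top of a list have less room to differ. The largest such difference among the 41 was 60.4 points, at chr6:30716681-30717257 near *IER3*. Exceptions at the genes were the *IER2* start-edge region and the *EGR1* end region, both with a lowest percentile under 30.

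The normoxia percentile lay between the hypoxia percentiles in 16 of the 28 regions (41.7% of all regions in all 3 lists), above both in 7 (34.7%) and below both in 5 (23.6%). In the lead regions it was below both at *EGR1*, above both at *IER2* and *IER5*, and between them at *IER3*, *ZFP36* and *DUSP1*, so the order of normoxia and hypoxia was not the same from gene to gene. Normoxia peaks covered more bp than those of both hypoxia libraries in 18 of the 28 regions (56.6% of all such regions). By window, normoxia covered most at 5 of the 6 genes, *EGR1* being the exception. The windows took 0.351% of the covered length of the normoxia list, 0.358% for hypoxia-1 and 0.403% for hypoxia-2. Normoxia also covered the most bp genome-wide. The covered length in the windows was 32286 bp in normoxia, 29077 bp in hypoxia-1 and 24085 bp in hypoxia-2. Normoxia thus exceeded hypoxia-1 by less, and hypoxia-2 by more, than hypoxia-1 exceeded hypoxia-2.

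The centres of the best peaks of the 3 libraries lay 22 to 699.5 bp apart, with a median of 121 bp over the 28 regions and 84.5 bp over all 9295. The widest spread, at the broad start region of *ZFP36*, came with the splitting of that region in normoxia. Of the 41 regions 3 (7.32%) were wider than 2 kb, 1 each at *IER2*, *IER3* and *ZFP36*, against 0.806% of all regions; joining peaks of several lists widens a region.

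The window edges left some neighbours out. Below the *IER3* window, 21 bp away, chr6:30687919-30689979 had percentiles of 98.6, 89.3 and 92.2, and 3.39 kb above it chr6:30736392-30737949 had 99.4, 99.6 and 97.0. The nearest region above the *IER5* window was 1.52 kb away, with 61.9, 88.3 and 75.2, and that above *EGR1*, 1.58 kb away, was in hypoxia-2 alone at 30.2. Inside, the outermost region of *ZFP36* lay 1.52 kb from the edge and that of *IER2* 2.36 kb. *DUSP1* was the most isolated gene, with the nearest regions 304.2 kb below and 76.6 kb above its window, each listed in a single hypoxia library.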

How the data were processed

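CDK8 was mapped by ChIP-seq in 1 normoxia and 2 hypoxia libraries. The deposited peak lists give a chromosome, start, end, peak name and the authors' score for each peak, on a scale that is not stated. MACS2 2.0.9, Bowtie 0.12.7, CASAVA 1.8.2, FastQC and the build GRCh37/hg19 are named per the submitters' processing notes; roles, thresholds and read filters are not given in the sources read. By the series design CDK8 was set against input, and the file names mark the lists as merged without saying what was merged.

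Starts, which count from 0 in the lists, were raised by 1. Peaks were assigned to a window by an overlap of at least 1 bp, scores were turned into percentile ranks within each list (ties averaged), and peaks of any list that touched or overlapped became 1 region. Joining was tested on simulated lists with split and close-lying peaks, whose pattern counts were all recovered. Every split peak was held whole by another simulated library. Coverage was checked only on a few hand-made intervals. Promoter stretches came from RefSeq (GRCh38.p14) by symbol and were searched on both strands; no hg19 annotation was used, so other immediate early genes were not analysed here. Read depth, and so the precision of a call, is unknown, and a peak absent from a list may lie just under its threshold. All 6 members are named, with the lead region of each window, regions at the gene interval and regions missing from a library; further flank regions were named after their values were seen. The members, lists and windows were chosen with earlier results of these data known. The alternatives tried were smaller windows, equal list sizes, the better-scoring 50% of each list, joining within 500 bp, a 50% coverage rule and leaving out either hypoxia library. The software was Python 3.11.15, pandas 2.3.3, numpy 2.4.6 and, for figures, matplotlib 3.10.9.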

Additional observations from a re-analysis of the deposited data

How the results depend on the processing

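Of 48 values under an alternative, 26 stayed within 1.5 times the reported count or within 1 SD of the hypoxia pair for covered length. With the better-scoring 50% of each list, hypoxia-2 kept 23 peaks, covered length was 25221 bp in hypoxia-1 and 19224 bp in hypoxia-2, 0 regions were in both hypoxia lists but absent from normoxia, and 2 were in normoxia alone. With equal list sizes (the 14256 best peaks) these last counts were 2 and 1, and when a library had to cover 50% of a region to count as holding it, 2 regions were in normoxia alone. With 10 kb flanks, normoxia covered 28235 bp and 0 regions were in both hypoxia lists but absent from normoxia. In the gene interval alone there were 11, 11 and 13 peaks covering 15009, 14528 and 13697 bp in normoxia, hypoxia-1 and hypoxia-2, with 10 regions in all 3 lists and 0 in both hypoxia lists but absent from normoxia. Joining within 500 bp left 17 regions in all 3 lists. Without hypoxia-1 or hypoxia-2, the regions in all remaining lists numbered 29 and 36, those in the remaining hypoxia library and not in normoxia 1 and 4, and those in normoxia alone 8 and 2. Smaller windows, shorter lists and fewer libraries change counts by construction; beyond that the cause was not tested. Hypoxia-1 and hypoxia-2 are the libraries labelled hypoxia replicates 1 and 2. No paired analysis was possible because normoxia has a single library and no test was run. The share over all regions was not computed under any alternative. The counts in normoxia alone or absent from normoxia can therefore not be set against the genome there. The small counts of regions outside the shared set, and the absence of read depth, limit every statement on gain or loss.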
